A study of Mus musculus with 26 samples.

Results

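The subject is 5hmC peaks that lie on short tandem repeats in DNA far from any annotated exon, either deep in introns or between genes. Members were taken from the 13 peak lists of the immunoprecipitated (IP) libraries by sequence and position alone. A member is a 200 bp interval whose summit, the midpoint of the interval, lies over 200 bp from every exon, and which holds an uninterrupted run of a unit of 1 to 4 nt. The run had to reach 18 nt, or 20 nt for units of 4 nt, and its length was counted inside the interval. It went on past the edge of the interval in 1323 members (20.5%). Of 56538 peaks, 6452 were members (11.4%), and they merged into 3347 regions.

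The libraries came from mouse cells profiled by hMeRIP-seq, in which fragmented total RNA is precipitated with an antibody against 5-hydroxymethylcytosine (5hmC) and sequenced beside its input. Embryonic stem cells were either wild type (WT ESC) or lacked Tet1, Tet2 and Tet3 (TKO ESC), and wild-type cells were also differentiated to embryoid bodies (WT EB) over 4 days in ES medium without LIF, with 3 libraries each. In Tet2-KI ESC the Tet2 locus encodes Tet2 with a C-terminal tag, and in Tet2deltaRBD-KI ESC the same tagged protein lacks the RNA-binding domain, with 2 libraries each. The knock-in cells derive from picked clones, TKO ESC are an earlier line, and all stem cells shared one medium. The peak lists give no expression level, so neither the knockouts nor the cell types could be checked against marker genes. The study calls its experiments biological triplicates or independent experiments, while the labels do not tie libraries to cultures. P-values measure the spread between these libraries.

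Tandem repeats of short units, or microsatellites, are scattered through mammalian introns and intergenic DNA. An intronic repeat is transcribed into the pre-mRNA and normally leaves with the spliced intron, and its sequence in RNA depends on the strand of the gene. TET enzymes oxidize 5-methylcytosine to 5hmC, so an RNA base that carries the mark must be a cytosine. A run of AG in the transcript therefore has no base that could carry it, while the complementary run of CT does. Members were grouped by unit up to rotation and strand, so that the AG family includes CT and the AC family includes GT.

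The sequences of the most widely shared regions are shown first because they display the unit families and their surroundings. They are the 6 member regions with a peak in the most libraries, and the region of most libraries for each of the 6 most frequent families (some are both), with ties settled by the highest mean fold enrichment. Each is given 5′ to 3′ in mm9, with the whole run in capitals, also where it passes the edge of the interval, and 40 nt of flank on either side.
Intergenic AG run, chr14:15507284-15507394, plus strand, intergenic: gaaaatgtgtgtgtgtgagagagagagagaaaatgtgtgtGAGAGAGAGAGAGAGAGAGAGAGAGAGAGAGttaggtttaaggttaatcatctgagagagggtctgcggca
Gnas intron, chr2:174115325-174115422, plus strand of the genome, that of the transcript: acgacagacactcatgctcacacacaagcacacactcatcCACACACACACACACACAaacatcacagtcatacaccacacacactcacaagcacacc
Intergenic run of an ATCC-family unit, chr5:147284480-147284599, plus strand, intergenic: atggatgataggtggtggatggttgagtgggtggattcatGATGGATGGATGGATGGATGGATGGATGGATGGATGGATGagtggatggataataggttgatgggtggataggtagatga
Lmf1 intron, chr17:25779680-25779831, plus strand of the genome, that of the transcript: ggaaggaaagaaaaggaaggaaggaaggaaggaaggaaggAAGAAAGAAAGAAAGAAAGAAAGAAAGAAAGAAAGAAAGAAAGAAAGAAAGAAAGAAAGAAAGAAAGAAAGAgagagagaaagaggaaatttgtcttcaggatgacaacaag
Taf3 intron, chr2:9914037-9914143, minus strand of the genome, that of the transcript: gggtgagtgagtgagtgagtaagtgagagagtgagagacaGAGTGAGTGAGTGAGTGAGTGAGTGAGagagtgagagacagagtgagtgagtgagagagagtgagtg
Magi1 intron, chr6:93717070-93717203, minus strand of the genome, that of the transcript: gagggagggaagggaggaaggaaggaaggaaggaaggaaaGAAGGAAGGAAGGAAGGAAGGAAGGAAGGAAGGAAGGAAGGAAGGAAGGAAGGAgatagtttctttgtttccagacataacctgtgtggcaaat
Khdrbs2 intron, chr1:32641722-32641828, plus strand of the genome, that of the transcript: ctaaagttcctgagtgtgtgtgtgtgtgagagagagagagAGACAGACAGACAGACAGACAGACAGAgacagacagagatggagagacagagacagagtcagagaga
Slc1a3 intron, chr15:8619625-8619747, minus strand of the genome, that of the transcript: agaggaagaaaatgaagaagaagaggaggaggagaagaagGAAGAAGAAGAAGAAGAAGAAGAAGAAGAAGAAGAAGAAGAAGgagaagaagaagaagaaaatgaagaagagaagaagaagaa

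The AG run on chromosome 14 lay 28213 bp from the nearest exon, between genes, and had a peak in all 13 libraries. Its fold enrichment, the IP signal over input at the summit, was 8.94, 12.6 and 7.76 in WT ESC, 5.07, 18.5 and 19.3 in TKO ESC, and 10.5, 12.3 and 5.32 in WT EB. The AC run of Gnas, which encodes the stimulatory G-protein alpha subunit, was also found in all 13 libraries. There it had 7.09, 12.1 and 18.8 in WT ESC, 5.28, 9.44 and 16.0 in TKO ESC, and 5.19, 6.80 and 8.01 in WT EB. The values of the 3 groups overlapped at both sites, and the flanks of the Gnas run are themselves rich in cytosine and adenine.

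The intergenic run of the ATCC family on chromosome 5, read as ATGG on the strand shown, completed the 3 regions found in every library. Its fold enrichment ranged from 4.67 to 8.59 in WT ESC, from 6.56 to 11 in TKO ESC and from 4.55 to 12.8 in WT EB. In the AAAG run of Lmf1, a factor in lipase maturation, 12 libraries had a peak, with 11.4, 24.3 and 15.7 in WT ESC, 6.46, 24.2 and 16.0 in TKO ESC, and 6.34, 9.69 and 5.01 in WT EB. Taf3, a subunit of the general transcription factor TFIID, also had 12, missing only WT EB replicate 1. Magi1, a scaffold protein of cell junctions, was chosen for its mean fold enrichment among the regions tied at 11 libraries, with 22.2 ± 5.83 (SD, 7 of the 9 libraries that give fold enrichment), on a run of 54 nt of which 21 nt lie inside the interval. At all 6 sites the range of the TKO ESC values overlapped that of WT ESC, while at Magi1 both WT EB values, 17 and 13.2, lay below all WT ESC and TKO ESC values.

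The ACAG run in Khdrbs2, an RNA-binding protein, was the most widely shared of its family with 9 libraries. Its fold enrichment was 2.92, 9.10 and 9.17 in WT ESC, 5.68 and 5.60 in the 2 TKO ESC libraries with a peak, and 5.32 in 1 WT EB library. The AAG run in Slc1a3, a glutamate transporter, also had 9 libraries, with 19.5 and 8.52 in 2 WT ESC libraries, 16.0, 5.53 and 12 in TKO ESC, and 13.2 and 5.87 in 2 WT EB libraries.

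Most regions were far less shared. A single library accounted for 1598 of the 3347 regions (47.7%), while 712 were found in 2 libraries and 425 in 3. For comparison, 55.1% of the 10504 deep regions without a run and 53.6% of all 23367 regions of the series were found in 1 library. Only 70 member regions had a peak in 8 or more libraries, of which 51 were intronic and 18 intergenic. At least 1 WT ESC library had a peak in 2686 regions (80.3%), against 631 regions for TKO ESC, 211 for WT EB, 1588 for Tet2-KI ESC and 411 for Tet2deltaRBD-KI ESC. Over all 23367 regions of the series the numbers were 11604, 5868, 4115, 12465 and 6301 in the same order. No other group shared 1432 of the WT ESC regions (53.3%), where the background over all regions of the series was 42.5%. For the other groups the share of member regions was below that of all regions. It was 24.2% (385 regions) against 39.3% for Tet2-KI ESC, 14.3% (90) against 19.6% for TKO ESC, 17.5% (72) against 34.5% for Tet2deltaRBD-KI ESC and 7.58% (16) against 21.6% for WT EB. Groups differ in list length and number of libraries, whose part in these shares was not tested.

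**Figure D1:**
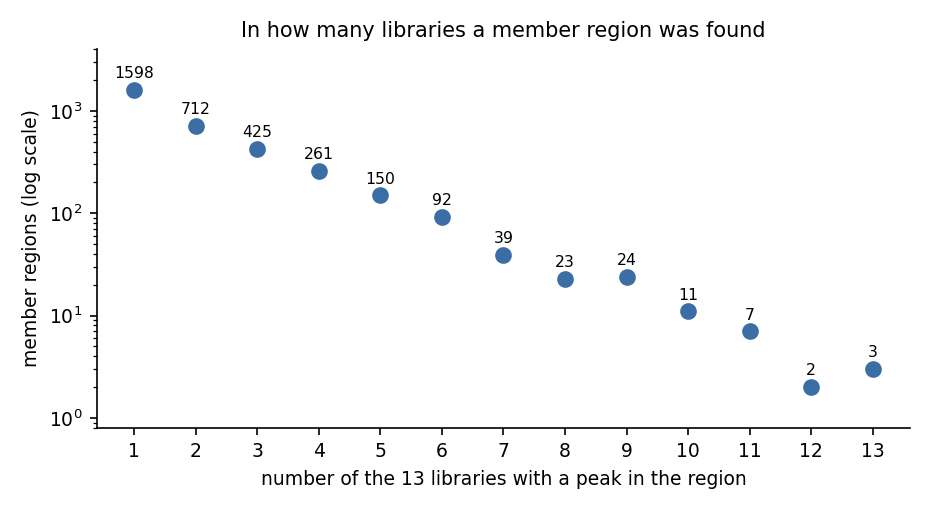
Number of member regions (vertical axis, log scale) by the number of the 13 libraries with a peak in them (horizontal axis); each point carries its count. The points fall from 1598 regions in 1 library to 3 regions in all 13.

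The units differed from those that the genome offers at such places. Of 11933015 windows of 200 bp tiled over sequence more than 200 bp from any exon, 714681 (5.99%) held a run, against 20.4% of the 31671 deep peaks. In single libraries the share among deep peaks ran from 6.73% to 37.2%, above that of the windows in all 13. The AG family supplied 3175 members (49.2%) and 1565 regions, compared with 14.1% of the windows with a run. Its share of members exceeded that of the windows in 13 of 13 libraries. The ACAG family, with 882 members (13.7%), made up 1.26% of these windows, a ratio of 10.8, and exceeded the windows in 12 of 13 libraries. WT EB replicate 1, with 15 members in all, had no ACAG member.

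Other abundant microsatellites were scarce among the peaks. The AC family is the most frequent in the windows with 33.8%, but it accounted for 1237 members (19.2%), and its share lay above the windows in 1 of 13 libraries. Mononucleotide runs of A or T made up 10.8% of the windows and 0.883% of members. The AT family fell from 5.11% of windows to 0.341% of members, and the AAAC family from 5.38% to 0.403%. Pooled over libraries, the AAAG, AAGG and AAG families were close to their genomic frequency, with 3.97%, 2.62% and 2.43% of members against 4.23%, 2.77% and 2.07% of windows. Single libraries differed, with shares above the windows in 7, 6 and 8 of 13. AAAG made up 2.22% to 3.93% of members in WT ESC libraries, below the windows, and 5.56% to 26.7% in the TKO ESC and WT EB libraries, above them. These 6 families together covered 91.1% of members and 58.3% of windows. More than 1 family was present in 1580 members (24.5%), compared with 12.4% of windows, and such an interval was counted under its longest run. These shares were not tested against each other, because expression, mappability and the removal of low-complexity reads also differ between sites.

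Inside the interval, runs in members were about as long as those in the windows. The median was 31 nt (quartiles 23 and 41 nt, longest 150 nt), against 32 nt in the windows. The run touched the edge in 21.8% of members and 17.9% of windows, and the whole run had a median of 34 nt in members. Members with runs of 18 to 23 nt made up 27.1% against 25.5% of windows, and those with 48 nt or more made up 14.3% against 17.9%. Within the AG family the median inside the interval was 32 nt in members and 41 nt in windows. Run length and fold enrichment were almost unrelated across members. Spearman's rho ran from -0.0333 to 0.341 over the 9 libraries, the highest in WT EB replicate 1 with its 15 members, and members of one library share its depth and input. Just outside the length limit, 2247 deep peaks had a longest run of 15 to 17 nt and a median fold enrichment of 5.91, and just inside it 796 members with 18 to 20 nt had 5.60.

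The run was seldom under the summit. The distance from the centre of the run to the summit had a median of 58 bp in members and 50.5 bp in windows, whose centre was taken as the summit. Where a run passed the edge, the part inside was used. The run covered the summit in 12.9% of members and 18.3% of windows. The AAGG family lay farthest away, with a median of 83 bp and 86.4% of its members over 50 bp from the summit. Members of the ACAG family were nearest, with 44.5 bp.

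In the AG family the run lay mostly on one side of the summit. Read along the strand that carries AG, the run was 5′ of the summit in 2240 of 3175 AG members (70.6%), against 51.6% of windows. The share was 75.7% where AG was on the transcript strand, 66.9% where it was on the opposite strand, and 69.3% between genes. It exceeded 50% in all 12 libraries that had 10 or more AG members, from 63.8% to 83.9%. The AAGG family had 87.0% and the AAAG family 78.9%, while the AC family was near even with 46.7%. Where GT was on the transcript strand, the AC-family run was 5′ of the summit along AC in 33.3% of 369 members, that is, mostly 5′ along the transcript. AC-family runs as a whole were most often in the outer parts of the interval.

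**Figure D2:**
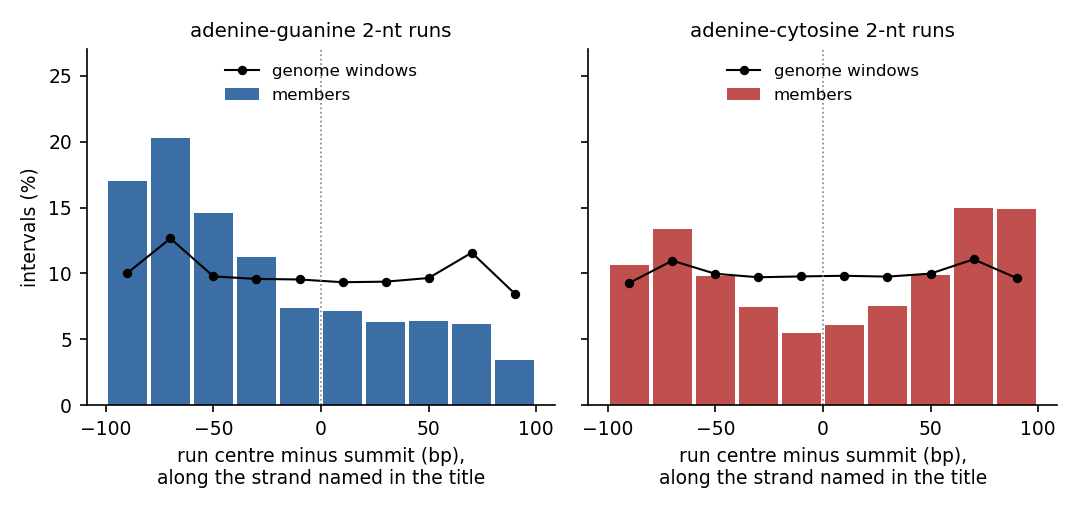
Position of the run centre relative to the summit (horizontal axis, bp) for members of the AG family (left) and AC family (right), as percent of intervals per 20 bp (bars), with tiled genome windows as lines. AG runs gather 5′ of the summit, with 20.3% in the bin from -80 to -60 bp and 3.46% from 80 to 100 bp, while AC runs are lowest around the summit on both sides.

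The sequence beyond the run was skewed in the same sense. In intronic members with AG on the transcript strand, the rest of the interval had a median pyrimidine content of 30% (quartiles 21.6% and 40.9%, 733 members), compared with 44.2% in windows with such a run. With CT on the transcript strand it was 73.8% (468 members) against 57.4% in windows. AC and GT runs had less skew, with 44.8% and 42.0% against 50.3% and 51.3% in windows.

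Members were spread over 3391 intergenic (52.6%), 2927 intronic (45.4%) and 134 noncoding-gene positions (2.08%). Windows with a run had 61.8% intergenic and 35.9% intronic positions. Deep peaks without a run were intergenic in 20% of cases. The intergenic share was higher in members than in deep peaks without a run in 13 of 13 libraries, for example 58.1% ± 2.43 against 28.3% ± 4.29 in WT ESC and 48.5% ± 14.3 against 20% ± 6.54 in TKO ESC (SD, n = 3 each). The median distance to the nearest exon was 4537 bp for intronic and 43942 bp for intergenic members.

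Intronic members allow the strand of the transcript to be read from the gene, although adaptors were ligated to double-stranded cDNA and the reads are not stated to keep strand. The 2893 members in introns of genes on 1 strand had a run without cytosine on the transcript strand in 1754 cases (60.6%). Windows with the same mix of units, computed for each library, had 40.5% to 50.0%. The members exceeded them in 13 of 13 libraries, by 22.4 percentage points on average (two-sided exact sign-flip permutation test over libraries, p = 0.000244, Benjamini-Hochberg adjusted over 14 tests 0.00342). The value is the smallest p that 13 libraries can give, and libraries share sites, so they are not fully independent. Windows of all units without this weighting had 60.4%, because runs of A, T or AT, which never hold cytosine, are frequent in the genome and rare among members.

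The excess of cytosine-free runs was smallest in WT ESC. There the share was 51.8%, 52.1% and 51.7% in replicates 1 to 3, compared with 53.7%, 77.0% and 62.6% in TKO ESC and 88.9%, 58.1% and 69.8% in WT EB. Tet2-KI ESC had 64.9% and 77.6%, and Tet2deltaRBD-KI ESC had 77.9% and 89.1%. Every WT ESC library lay below every other library. The WT ESC libraries held 396 to 544 intronic members, the TKO ESC and WT EB libraries 9 to 131, and Tet2-KI ESC replicate 1, with its 64.9%, held 619. Differences between groups in this share were not tested.

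**Figure D3:**
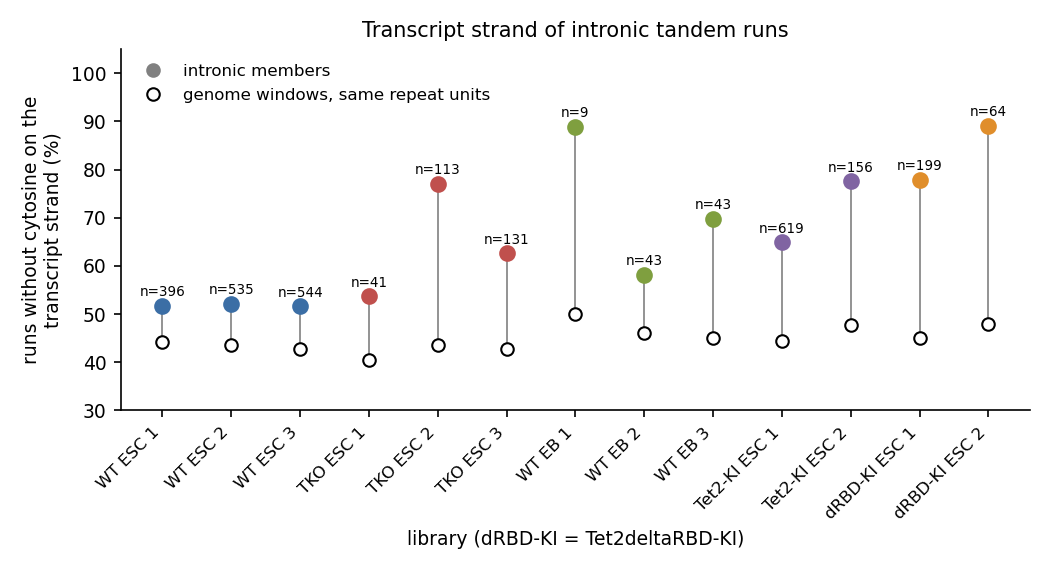
Percent of intronic runs without cytosine on the transcript strand (vertical axis) in each of the 13 libraries (filled points, number of members above) and in genome windows with the same mix of repeat units (open points). Filled points lie above open points in every library, with WT ESC at 51.7% to 52.1% and Tet2deltaRBD-KI ESC at 77.9% and 89.1%.

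The strand was uneven within families as well. In the AG family, AG was on the transcript strand in 733 of 1201 intronic members (61.0%), against 48.4% of windows, an average of 19.1 points over the libraries (exact sign-flip permutation test, p = 0.00269, adjusted 0.0188). The average weights libraries equally. WT ESC libraries, with 211 to 250 intronic AG members each, had only 52.6% to 56.8%. WT EB replicate 1 and Tet2deltaRBD-KI ESC replicate 2 had 100% of 2 and 12 members. TKO ESC replicate 1 went the other way with 31.3% of 16 members. In the AC family the transcript carried GT in 369 of 619 members (59.6%) against 55.5% of windows, with a library average 16.9 points higher (p = 0.0146 by the exact permutation test, adjusted 0.0438). That average weights libraries equally, and the 3 WT ESC libraries, with 47.5% to 51.9% GT, and WT EB replicate 2, with 42.9% of 7 members, lay below the windows. The direction of the AC family therefore differed between libraries.

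Units of 3 or 4 purines also lay mostly with the purines on the transcript strand. AAAG was on the transcript strand in 163 of 175 intronic members (93.1%) against 39.4% of windows, and AAGG in 106 of 112 (94.6%) against 41.3%. The AAG family had 76 of 96 (79.2%) against 37.5%, and runs of A on the transcript made up 40 of 43 (93.0%) against 39.0%. The ACAG family, whose every form holds cytosine, read ACAG rather than CTGT in 181 of 288 members (62.8%) against 42.9%. Members of 1 region recur in several libraries, so these counts are not independent. Counted once each, regions found in 1 library had a cytosine-free run in 56.0% of 757 cases, those in 2 to 3 libraries in 58.5% of 482, those in 4 to 6 in 65.2% of 230 and those in 7 to 13 in 74.6% of 67.

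The share of the peak list taken by members differed between groups. In WT ESC, members made up 24.6%, 18.2% and 20.7% of the lists of replicates 1 to 3, from 1081, 1298 and 1348 members. TKO ESC had 11.2%, 4.05% and 9.60%, from 108, 175 and 313 members. WT EB had 3.01%, 5.35% and 2.10%, from 15, 98 and 74 members. The lowest WT ESC share lay above the highest of TKO ESC and WT EB, and the ranges of TKO ESC and WT EB overlapped. As a share of deep peaks alone, members made up 37.2%, 26.4% and 29.7% in WT ESC. The same share was 26.3%, 7.98% and 17.8% in TKO ESC and 7.81%, 16.0% and 7.47% in WT EB. On that basis WT ESC replicate 2 and TKO ESC replicate 1 were almost equal. The share of deep peaks was not tested between groups.

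WT ESC exceeded TKO ESC by 12.9 percentage points (21.2% ± 3.20 against 8.28% ± 3.75, SD, n = 3 each, two-sided exact permutation test, p = 0.1, adjusted 0.156) and WT EB by 17.7 points (3.49% ± 1.68, exact permutation p = 0.1, adjusted 0.156). With 3 libraries against 3 no smaller p is possible. Over the 3 groups together, 0.903 of the sum of squares lay between groups (one-sided exact permutation test over all labellings, p = 0.00714, adjusted 0.0333). With labels exchanged only within replicate numbers, the call was lost (exact permutation p = 0.0556, smallest possible 0.0278). With every list shortened to its 498 highest peaks by fold enrichment, the differences were 8.37 points (exact permutation p = 0.3) and 12.9 points (exact permutation p = 0.1) and the 3-group share fell to 0.583 (exact permutation p = 0.0857). The libraries of the description prefix 1703 alone, replicates 2 and 3, gave 12.7 and 15.8 points and a 3-group share of 0.921 (exact permutation p = 0.133, in a design too small to reach 0.05).

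**Figure D4:**
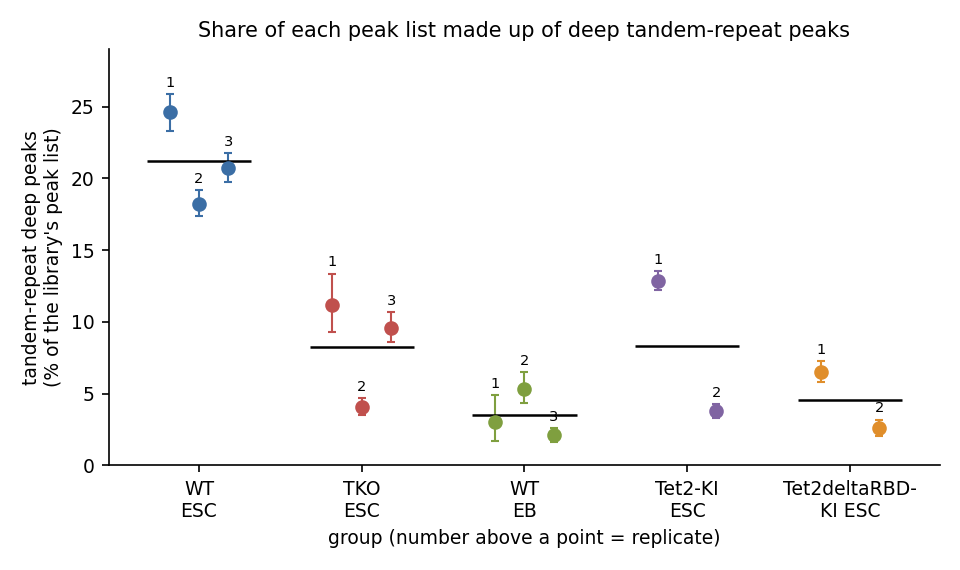
Members as percent of the peak list of each library (vertical axis) by group, with exact 95% intervals for counting error as bars, replicate numbers above the points and the group mean as a line. The WT ESC points lie between 18.2% and 24.6%, above all 10 other libraries.

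Between the knock-in lines the replicates differed more than the groups. Tet2-KI ESC had 12.9% in replicate 1 and 3.77% in replicate 2, from 1335 and 218 members, and Tet2deltaRBD-KI ESC had 6.53% and 2.59%, from 303 and 86 members. The difference of 3.75 points was within the spread (two-sided exact permutation test, p = 0.667, adjusted 0.718, smallest possible 0.33). Without Tet2-KI ESC replicate 1 it was -0.791 points, with Tet2-KI ESC replicate 2 alone set against both Tet2deltaRBD-KI ESC libraries. Between libraries of the same replicate number, Tet2-KI ESC had the higher share in both cases. The direction thus depended on which libraries were compared.

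Families also differed in share between libraries. The AG family made up 56.2%, 51.0% and 52.5% of members in WT ESC, 49.1%, 32% and 44.1% in TKO ESC, and 20%, 52.0% and 36.5% in WT EB. WT ESC exceeded TKO ESC by 11.5 points (p = 0.1 by the exact permutation test, adjusted 0.156) and WT EB by 17 points (p = 0.2 by the same permutation test, adjusted 0.255). These differences were 6.64 points without TKO ESC replicate 2 and 8.96 points without WT EB replicate 1. With lists shortened to 498 peaks the difference from TKO ESC turned to -0.036 points and that from WT EB was 33.3 points. The libraries of prefix 1703 gave 7.5 points for WT EB. The AC family had 19.1% to 19.7% in WT ESC, 8% to 17.9% in TKO ESC and 12.2% to 33.3% in WT EB. It was higher in WT ESC than in TKO ESC by 5.45 points (exact permutation p = 0.1, adjusted 0.156), or 2.51 points without TKO ESC replicate 2 and 9.58 points with the shortened lists, while it differed from WT EB by -0.368 points (exact permutation p = 1). This last difference was 6.45 points without WT EB replicate 1, of 15 members, and 1.32 points with the shortened lists. For the ACAG family the mean was 15.5% ± 0.917 of WT ESC members, 11.3% ± 5.40 of TKO ESC members and 7.46% ± 7.16 of WT EB members (SD over 3 libraries).

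Members were not the more enriched of the deep peaks. Their median fold enrichment was 6.33, 5.20 and 5.34 in WT ESC, 6.46, 6.70 and 5.60 in TKO ESC, and 5.43, 6.19 and 6.12 in WT EB. In deep peaks without a run the medians were 6.53, 5.84 and 5.91 in WT ESC, 6.46, 7.31 and 6.27 in TKO ESC, and 5.43, 7.07 and 6.43 in WT EB. Members were lower in 7 of 9 libraries and equal in the other two, by 0.10 on the log2 scale on average (two-sided exact sign-flip permutation test, p = 0.0156, adjusted 0.0438), a ratio of 0.932. The call was lost under 3 alternatives, with runs of at least 24 nt (-0.05, exact permutation p = 0.328), lists shortened to 498 peaks (-0.05, p = 0.281) and peaks at or above the list's median (-0.04, p = 0.0859). Between groups the member medians differed by -0.15 on the log2 scale for WT ESC minus TKO ESC (exact permutation p = 0.2, adjusted 0.255) and -0.08 for WT ESC minus WT EB (exact permutation p = 0.6, adjusted 0.70). With lists shortened to 498 peaks both differences changed sign, to 0.053 and 0.46. The medians of WT ESC overlapped those of both other groups.

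Among families, AAAG and AAGG had the higher medians in WT ESC, averaging 6.45 ± 0.682 and 6.72 ± 0.224, compared with 5.63 ± 0.601 for AG, 5.56 ± 0.569 for AC and 5.78 ± 0.680 for ACAG (SD over 3 library medians). In TKO ESC the averages were 7.37 ± 1.21 for AAAG, 7.09 ± 0.644 for AAGG, 6.32 ± 0.634 for AG and 6.37 ± 0.834 for AC. AAG averaged 5.11 ± 0.708 in WT ESC and 7.08 ± 1.59 in TKO ESC. The order was different in WT EB, where AAGG was lowest with 5.61 (2 libraries of 2 and 3 members), against 5.78 ± 0.384 for AG and 7.56 ± 0.435 for AAAG. On the transcript strand, runs without cytosine had the higher median fold enrichment in 8 of 9 libraries. The exception was WT EB replicate 2 with 6.19 against 6.41, and WT EB replicate 1 had a single member with cytosine. The values in WT ESC were 6.53, 5.82 and 5.82 without cytosine and 6.53, 5.20 and 5.26 with it. The first pair was equal after rounding.

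Presence can also be compared region by region. All 3 WT ESC libraries had a peak in 403 member regions, and 182 of these (45.2%, exact Clopper-Pearson 95% interval 40.2% to 50.2%) had no peak in TKO ESC. The same held for 32.2% of all replicated regions of the series and for 34.8% (31.1% to 38.7%) of deep regions without a run. For WT EB, 306 of 403 (75.9%, 71.5% to 80.0%) had no peak, against 54.9% of all regions and 62.4% (58.5% to 66.3%) of deep regions without a run. The intervals cover counting error only, and TKO ESC and WT EB are set against the same WT ESC libraries. Member regions thus lacked a peak more often than the series as a whole in both groups. WT ESC members also had lower median fold enrichment than deep peaks without a run (5.20 to 6.33 against 5.84 to 6.53), and the part of this in their absence was not tested.

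In the other direction little was seen. All 3 TKO ESC libraries shared 32 member regions and all 3 WT EB libraries shared 6, and none of them lacked a WT ESC peak, which allows shares of up to 10.9% and 45.9%. Among all regions of the series the shares were 1.73% of 346 and 2.61% of 115. Of the 403 WT ESC regions, 67, 102 and 172 had a peak in TKO ESC replicates 1 to 3, and 11, 71 and 50 in WT EB replicates 1 to 3. As shares these were 16.6%, 25.3% and 42.7% for TKO ESC, where all replicated regions of the series had 29.8%, 44.7% and 54.2%. For WT EB they were 2.73%, 17.6% and 12.4%, against 13.4%, 33.7% and 30.5%. Within each group the order of the libraries was the same for members and for all regions. A region without a peak is one in which none passed the threshold.

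Regions between genes lacked a TKO ESC peak in 111 of 222 cases (50.0%, 43.2% to 56.8%), and intronic regions in 68 of 173 (39.3%, 32% to 47%). Regions with a cytosine-free run on the transcript did so in 32 of 97 (33.0%, 23.8% to 43.3%), and those with cytosine in 35 of 73 (47.9%, 36.1% to 60.0%). The intervals of both pairs overlapped. By family, 109 of 213 AG regions (51.2%), 33 of 71 AC regions (46.5%) and 25 of 52 ACAG regions (48.1%) had no TKO ESC peak. For WT EB these shares were 80.3%, 80.3% and 82.7%. Over all replicated regions of the series, 32.2% had no TKO ESC peak and 54.9% had no WT EB peak.

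Both Tet2-KI ESC libraries had a peak in 198 member regions, of which 74 (37.4%, 30.6% to 44.5%) had none in Tet2deltaRBD-KI ESC, close to the 35.6% of all regions. The share rested on single libraries, but so did that of all regions. Without Tet2-KI ESC replicate 2 it was 81.2% of 1490 regions against 69.4% of all regions, without Tet2-KI ESC replicate 1 51.3% against 55.5%, and without Tet2deltaRBD-KI ESC replicate 1 73.1% against 66.9%. Among 58 regions found in both Tet2deltaRBD-KI ESC libraries, 4 (6.90%, 1.91% to 16.7%) had none in Tet2-KI ESC, against 15.8% of all regions. By family, 23 of 67 AG regions (34.3%), 13 of 43 AC regions (30.2%) and 9 of 10 ACAG regions found in both Tet2-KI ESC libraries had no Tet2deltaRBD-KI ESC peak.

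**Figure D5:**
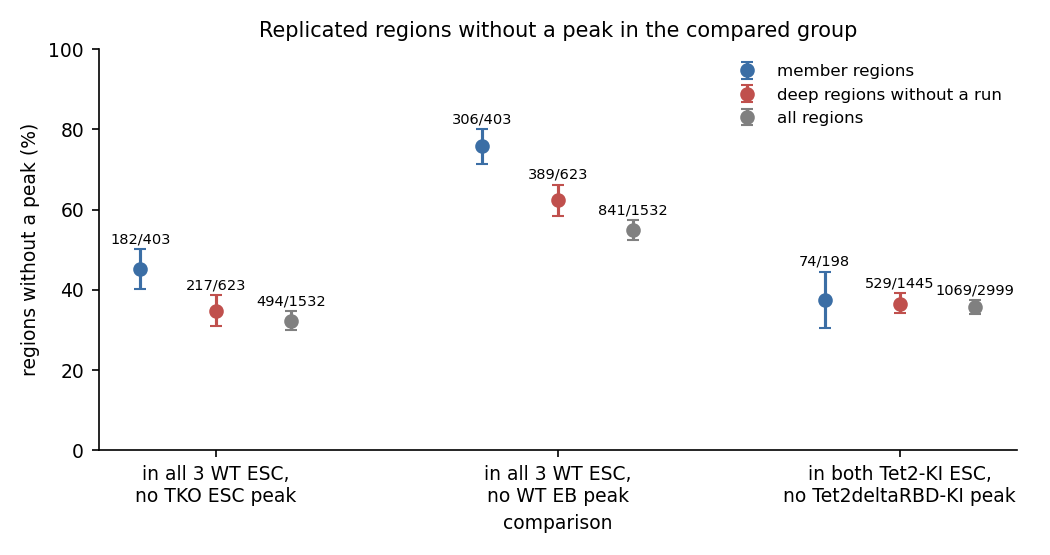
Percent of regions, found in every library of the first group, that had no peak in the second group (vertical axis), for member regions, deep regions without a run and all regions, with exact 95% intervals for counting error and counts above. Member regions lie highest for TKO ESC (45.2%) and WT EB (75.9%) and beside the others for the knock-in lines (37.4%).

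There were 156 member regions with a peak in all 3 WT ESC libraries and none in TKO ESC or WT EB. They made up 38.7% of the 403, against 26.5% for all regions of the series. The 6 with the highest minimum fold enrichment over the WT ESC libraries are shown because they are the clearest cases of this pattern, in the same format as before.
Fto intron, chr8:94111204-94111301, plus strand of the genome, that of the transcript: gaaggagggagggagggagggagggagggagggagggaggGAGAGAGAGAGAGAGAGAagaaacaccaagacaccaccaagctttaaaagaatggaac
Zfp704 intron, chr3:9521990-9522123, minus strand of the genome, that of the transcript: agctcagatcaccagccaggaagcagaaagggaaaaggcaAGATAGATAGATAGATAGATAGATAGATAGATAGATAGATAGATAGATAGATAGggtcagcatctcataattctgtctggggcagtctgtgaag
Dstyk intron, chr1:134357233-134357376, plus strand of the genome, that of the transcript: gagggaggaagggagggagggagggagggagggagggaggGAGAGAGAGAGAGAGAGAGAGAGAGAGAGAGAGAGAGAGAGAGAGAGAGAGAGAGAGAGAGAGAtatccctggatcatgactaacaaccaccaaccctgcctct
Unc5c intron, chr3:141264664-141264762, plus strand of the genome, that of the transcript: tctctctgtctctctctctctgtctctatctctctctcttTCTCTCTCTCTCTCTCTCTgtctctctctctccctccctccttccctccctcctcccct
Igsf21 intron, chr4:139702578-139702676, minus strand of the genome, that of the transcript: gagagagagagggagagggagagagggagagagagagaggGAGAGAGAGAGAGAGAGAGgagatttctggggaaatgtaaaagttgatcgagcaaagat
Intergenic AC run, chr8:54505867-54505974, plus strand, intergenic: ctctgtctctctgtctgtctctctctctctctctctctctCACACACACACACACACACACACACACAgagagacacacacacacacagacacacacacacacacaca

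The Fto run, of 18 nt in an intron of an RNA demethylase gene, reached 11.9, 16.3 and 10.4 in WT ESC. Its AG run follows a longer stretch of AGGG units. Zfp704, a zinc-finger gene, had 9.35, 16.6 and 12 on an AGAT run of 54 nt. Dstyk, a dual-specificity kinase, had 8.65, 11.1 and 13.2 on 64 nt of AG, 52 nt of them inside the interval. These 3 regions also had knock-in peaks, in 2, 3 and 3 of the 4 knock-in libraries, among them at least 1 of Tet2deltaRBD-KI ESC in each case.

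Unc5c, a netrin receptor, carried a run of pyrimidines alone on the transcript strand, and had 8.46, 14.7 and 10.5. Igsf21, a member of the immunoglobulin superfamily, had 8.14, 8.56 and 10.5 on an AG run of 19 nt. The intergenic AC run on chromosome 8, 73355 bp from an exon, had 9.74, 8.67 and 7.89. Unc5c and the intergenic run had a peak in 1 of the 4 knock-in libraries each, a Tet2-KI ESC library in both. These sites were selected for the pattern they show, so their absence from TKO ESC and WT EB is a description.

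Some member regions had a peak in both libraries of 1 knock-in line and in neither of the other. The knock-in lists give no fold enrichment, so these regions were ranked by run length alone. By length inside the interval, the longest runs with a peak in both Tet2-KI ESC libraries and none in Tet2deltaRBD-KI ESC were an AAAG run in Akap10, an A-kinase anchor protein, an AAAG run in 3632451O06Rik and an intergenic AC run on chromosome X. They measured 60, 58 and 55 nt there, and 66, 94 and 55 nt in whole. Akap10 had 18.8, 26.9 and 21 in WT ESC, 9.28 and 12.6 in 2 TKO ESC libraries and 13.7 in 1 WT EB library. The reverse pattern was found for an ATCC-family run of 39 nt in Cux2, a homeobox gene, a GT run of 32 nt in Maml3, a coactivator of Notch signalling, and an ATCC-family run of 30 nt in Ryk, a Wnt receptor. Cux2 had 7.72 and 6.07 in 2 WT ESC libraries. Maml3 and Ryk had no WT ESC peak, while Maml3 had 6.73 and 7.62 in 2 TKO ESC libraries.

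Members were found in 1204 of 22238 coding genes (5.41%), and 257 genes held at least 2 regions. The genes with a region had a median span of 129 kb, against 15.5 kb for all coding genes. The most regions, 9 each, were in St6galnac3, a sialyltransferase gene of 519658 bp, and in Gm20388, a gene model of 4434882 bp that spans other annotated genes. Pde4d, a cyclic AMP phosphodiesterase, held 8, and Odz4, a teneurin, and Wwox, an oxidoreductase, held 6 each. In Pde4d the regions ranged from 1 library to 11, and the one in 11 libraries, an AAAG run of 20 nt, had 22.6, 30.8 and 17.7 in WT ESC, 32.7 and 15.7 in 2 TKO ESC libraries and 5.43, 6.08 and 13.3 in WT EB. In that run the WT EB values all lay below those of WT ESC and TKO ESC.

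Of the long neuronal adhesion and guidance genes, 24 of 35 (68.6%) held 51 regions, against 43.1% of all 953 coding genes over 200 kb, among them Cdh13 with 5, Opcml with 4 and Cdh4 with 3. Per length this was 1.40 regions per Mb, against 1.72 for the coding genes over 200 kb and 1.56 for all coding genes. The list was chosen for its long genes, whose median span was 1056 kb. Of 24 annotated pluripotency genes, 1 held a region, which was Tet2, with 1.14 regions per Mb over the list. The Tet2 region, a GT run of 18 nt, was found in 4 libraries, 1 of WT ESC (5.54), 1 of Tet2-KI ESC and both of Tet2deltaRBD-KI ESC. Of 9 genes named in the study, Cdh4, a cadherin, and Dab1, an adaptor of reelin signalling, held 4 regions together. They are 22.2% of that list, against 5.41% of all coding genes, and the list had 2.04 regions per Mb against 1.56. The median span of the 9 genes was 26.3 kb, against 15.5 kb for all coding genes. These genes were named in the study of these same samples and are no independent evidence. The Dab1 run, AG of 51 nt, had 11.6, 7.08 and 5.91 in WT ESC and 3.89 in 1 TKO ESC library, with no peak in WT EB. The regions of Cdh4 were found in 5, 1 and 2 libraries, and the most shared of them had 6.14 in 1 WT ESC library and 5.68 and 6.27 in 2 TKO ESC libraries.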

How the data were processed

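The deposited files were 13 peak lists of IP libraries, with columns 2 and 3 giving interval positions (coordinates on mm9). For the 9 WT ESC, TKO ESC and WT EB lists, the authors also deposited the fold enrichment of IP over input, a ratio from the peak caller; the 4 knock-in lists as deposited hold positions only. The authors inspected reads with FastQC, discarded those of low complexity with AfterQC and those of rRNA or tRNA with Bowtie2, trimmed with Trimmomatic, mapped with STAR, called peaks with MACS2 for each library and its input (q-value below 0.05), then set 200 bp around each summit. Versions are not given in the sources used here. Reads made up mostly of a repeat may be lost to AfterQC, and the effect of that on these values was not tested. The lists hold no read counts, so depth is unknown, and the lists ran from 498 to 10383 peaks. Input libraries were not analysed here.

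Runs were searched in NCBIM37 (mm9) on both strands and allowed to end in a partial copy of the unit. Exons, introns and gene strands came from GENCODE M1, and 163 peaks off its chromosomes were left out of the members. Genome windows without unknown bases were tiled every 200 bp and filtered as the peaks were. Regions were merged at an overlap of at least 1 bp, and any peak in a region counted as presence. Libraries were compared by exact permutation tests, with sign flips where each library was set against its own reference value, and p-values were adjusted by Benjamini-Hochberg over 14 tests. Python 3.11.15, pandas 2.3.3, numpy 2.4.6, scipy 1.17.1, numba 0.67.0 and matplotlib 3.10.9 were used, and the search was tested on simulated sequence. At most 6.67% of the member intervals of a list were identical to those of another. Regions were named by a rule: most libraries, most libraries per unit family, strongest WT ESC regions without TKO ESC and WT EB peaks, longest runs with peaks in 1 knock-in group only, and genes with most regions or on the lists. The reverse rule named no region for TKO ESC or WT EB. The members, gene lists and tests were chosen with earlier results of these data known.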

Additional observations from a re-analysis of the deposited data

How the results depend on the processing

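Under the alternatives, 274 values were recomputed, of which 240 had the same sign and the same outcome of the test, or moved by less than their interval. Lists shortened to 498 peaks gave a between-group share of 0.583, a log2 fold enrichment difference from deep peaks without a run of -0.048, WT ESC minus TKO ESC and WT EB log2 fold enrichment of 0.053 and 0.46, an AC-family share of 1.32 points over WT EB, an AG-family share of -0.036 points over TKO ESC, and 33.3% and 55.6% of only 9 regions without TKO ESC and WT EB peaks. The member fold enrichment difference was -0.051 with runs of 24 nt and -0.044 for peaks above the list's median, which also gave 83.5% of regions without a WT EB peak. The prefix 1703 libraries gave 0.921 (exact permutation p = 0.133, 6 libraries), an AC-family difference of 6.54 points, and 62.9% and 83.9% of regions without TKO ESC and WT EB peaks. Presence in 2 of 3 replicates gave 67.0% and 87.3%, and counting member intervals only gave 52.5% for TKO ESC. Leaving out 1 library moved these shares to between 48.6% and 66.4% (without TKO ESC replicate 3) for TKO ESC, 76.7% and 86.8% for WT EB and 43.9% and 81.2% for the knock-in lines, the last without Tet2-KI ESC replicate 2. It moved the knock-in share difference to between -0.791 and 8.30 points and the AC-family difference from WT EB to between -4.09 and 6.45 points. The cause of these shifts was not tested, beyond the fewer libraries or regions each holds. For regions without TKO ESC or WT EB peaks, the share over all regions was not computed under these alternatives. Their shares therefore cannot be set against the 32.2% and 54.9% of all regions in the main setting. Replicate numbers are shared between groups. Deviations of same-numbered libraries over member regions correlated by at most 0.0502 and by -0.0118 at the lowest, and the main tests used no pairing. That check did not cover the member share. In WT ESC and TKO ESC this share was highest in replicate 1 and lowest in replicate 2, which was not so in WT EB. In both knock-in lines it was also higher in replicate 1. The correlations therefore do not settle whether the numbers are a pairing for the share. With the replicate block the between-group share was 0.903 with p = 0.0556 (exact permutation, smallest possible 0.0278) while no other difference between groups was past the threshold with or without it. The strand tests and the comparison with deep peaks without a run take each library as its own block and have no such fit. Counting error alone is covered by the intervals, and the unknown depth limits what an absent peak shows.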

Other observations

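Several rarer families were one-sided on the transcript. All 38 intronic AGGC members read AGGC on the transcript strand, against 49.3% of windows, from 19 regions in all. The AATG family, of 10 regions, read AATG in 25 of 26 members, against 44.2% of windows, and all 18 members of the ACTC family, which came from 4 regions including Taf3, read GAGT, against 52.0%. The AGGG family read AGGG in 42 of 46 members (windows 38.6%) and the AGAT family AGAT in 38 of 43 (windows 48.6%), while the ATCC family read GGAT in 83.7% of 49 members, against 50.5% of windows.

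Fold enrichment took few distinct values among members. In WT ESC replicate 2, 1298 members had 225 distinct values and 15.3% of them shared the value 5.20. In TKO ESC replicate 3 the commonest value, 5.60, was shared by 17.3% of 313 members. In both libraries this value was also the median, so differences between medians move in steps.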
